A study of Homo sapiens with 9 samples.

Results

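The 35 genes described here encode aminoacyl-tRNA synthetases and were taken by name from the 20442 genes measured. Of these, 19 encode cytosolic enzymes (symbols ending in 1, together with FARSA and FARSB) and 16 encode mitochondrial enzymes (symbols ending in 2). All 35 were abundant enough to be tested. They were followed in PC9, an established human line of lung adenocarcinoma driven by a mutant epidermal growth factor receptor (EGFR), the target of the inhibitor osimertinib. The cells stably carried the FUCCI4 reporter, whose CDT1 and geminin fusions mark phases of the cell cycle. Untreated cells (day 0) and cells kept in 500 nM osimertinib for 28 days (day 28) were fixed with glyoxal, permeabilised with saponin and sorted by DAPI and reporter signal into G1, S and G2 fractions. Poly(A) RNA was sequenced in 9 libraries. Untreated cells gave 5 of them, from clones 1 and 7 for G1 and for S and from clone 1 for G2. Treated cells gave 4, from clones 1 and 7 for G1 and from clone 1 for S and for G2. All groups share the line, the reporter, the fixation and the sort, and S and G2 at day 28 rest on 1 library each. No label says whether libraries of a clone were cultured apart, so the p-values measure the spread between these libraries, which may be technical.

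Aminoacyl-tRNA synthetases join each amino acid to its transfer RNA, the step that fixes the genetic code. Most amino acids have separate nuclear genes for the cytosolic and the mitochondrial enzyme, but GARS1 and KARS1 each supply both compartments, and mitochondrial glutamine tRNA is made indirectly from the product of EARS2. Several cytosolic enzymes sit in a multisynthetase complex held by the scaffolds AIMP1, AIMP2 and EEF1E1. When amino acids are short, the transcription factor ATF4 induces many of the cytosolic synthetase genes through elements that it binds together with C/EBP factors.

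The promoters were searched for that element, and the matches are printed so that they can be read against the changes below. RefSeq promoters (GRCh38.p14, from 250 bases before to 50 bases after a gene's start) were matched for 30 of the 35 genes, not for AARS2, VARS2, LARS1, VARS1 and YARS1. The C/EBP-ATF element was searched as TGATGNAA on both strands, and the narrower form TGATGCAA is contained in it. A gene was counted when any of its promoters held the match. TGATGNAA was found for 7 of 16 cytosolic and 1 of 14 mitochondrial genes, against 4.46% of 27305 genes. TGATGCAA was found for 6 of 16 cytosolic and 0 of 14 mitochondrial genes, against 1.08% of all. The windows of 30 bases around the match follow, 5′ to 3′ on the gene's strand, with the match in capitals.
AARS1: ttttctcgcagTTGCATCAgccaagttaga
CARS1: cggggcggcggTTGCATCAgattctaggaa
GARS1: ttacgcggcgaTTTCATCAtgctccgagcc
IARS1: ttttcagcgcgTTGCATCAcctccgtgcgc
MARS1: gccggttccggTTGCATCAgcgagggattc
NARS1: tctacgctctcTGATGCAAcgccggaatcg
TARS1: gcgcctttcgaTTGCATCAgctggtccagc
YARS2: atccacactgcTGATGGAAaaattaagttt

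The matches of NARS1 and YARS2 read along the gene and the other 6 read on the opposite strand. The first base of the match lay 2 bases upstream of the start in CARS1, 4 in MARS1, 13 in IARS1 and 33 in GARS1. It lay farther out in AARS1 (187 bases upstream, chr16:70289675-70289704) and YARS2 (197 bases upstream, chr12:32756076-32756105). In TARS1 it lay 3 bases downstream (chr5:33440956-33440985) and in NARS1 15 bases downstream (chr18:57621804-57621833). In contrast, the ETS-type motif CCGGAAG, on both strands, was found for 9 of 16 cytosolic and 7 of 14 mitochondrial genes (12.2% of all). The E-box CACGTG, a palindrome, was found for 1 of 16 and 3 of 14 (8.77% of all). A match describes the letters only and shows no binding.

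The values below are log2 of the reads over a gene's coding span, introns included, multiplied by 1 factor per library. They therefore mix spliced and unspliced RNA. Reads over all spans numbered from 8.83 M (M for mega, day 0 G1 clone 7) to 108.7 M (day 0 G1 clone 1). The mitochondrial genome's share of reads was 6.07% to 10.7% in untreated libraries, and under treatment it was 8.61% in G1 of clone 7, 15.8% in G2, 19.6% in G1 of clone 1 and 21.6% in S. The epithelial markers EPCAM, KRT8, KRT18, KRT19 and CDH1 were read in 9 of 9 libraries, and the lung factor NKX2-1 was low, at 0.113 to 8.49 reads per M reads. Among leukocyte markers, PTPRC reached at most 2.21, CD14 1.16 and CD3E 0.392 reads per M reads. Of the fibroblast and endothelial markers, COL1A1 lay at 12.4 to 46.5, PECAM1 at 0.623 to 8.23, CDH5 at 0.295 to 4.8 and PDGFRB at no more than 0.58 reads per M reads.

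Cytosolic synthetase RNA was lower at day 28. Of the 19 genes, 15 fell and 0 rose (limma with phase as a term, Benjamini-Hochberg adjusted p under 0.05), where 26.6% of the 12391 tested genes fell and 28.6% rose (55.1% in either direction). The median log2 fold change of the 19 genes was -0.93, against 0.01 over all tested genes. All 19 were negative as scaled by the authors, whereas with quantile scaling 11 fell and CARS1 (0.05), LARS1 (0.24) and QARS1 (0.20) turned positive without a call. In bulk libraries, fewer cells with a transcript and less RNA per cell cannot be told apart.

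The largest cytosolic falls were in FARSB, the beta subunit of phenylalanyl-tRNA synthetase, and TARS1, threonyl-tRNA synthetase. Untreated values are given in the order G1 of clone 1, G1 of clone 7, S of clone 1, S of clone 7, G2, and treated values in the order G1 of clone 1, G1 of clone 7, S, G2. FARSB (ENSG00000116120, GRCh38 chromosome 2, 222571871 to 222656073) stood at 15.02, 15.18, 15.13, 15.31 and 15.55 at day 0 and at 12.95, 12.86, 13.73 and 13.68 at day 28. Each day 28 library lay below each day 0 library, with both G1 libraries lowest. The mean fell from 15.24 ± 0.20 (SD, n = 5) to 13.30 ± 0.47 (SD, n = 4), and with phase as a term the log2 fold change was -1.90 ± 0.18 (SE, limma adjusted p = 3.49e-05), or 3.74-fold lower.

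TARS1 (ENSG00000113407, chromosome 5, 33441087 to 33467708) stood at 15.58, 16.06, 15.82, 16.26 and 16.12 at day 0 and at 13.71, 14.14, 14.27 and 14.03 at day 28. The days did not overlap, and in G1 at either day, as in day 0 S, clone 7 lay above clone 1. Its log2 fold change was -1.90 ± 0.20 (SE, limma adjusted p = 5.09e-05). TARS1 carries the C/EBP-ATF element printed above, and FARSB has none in its window.

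KARS1, lysyl-tRNA synthetase of both compartments, read 15.51, 15.58, 15.57, 15.40 and 16.01 at day 0 and 13.71, 13.55, 14.51 and 14.77 at day 28. Both treated G1 libraries were lower than treated S and G2, and the days did not overlap (-1.47 ± 0.20, adjusted p = 0.000221). Tryptophanyl-tRNA synthetase, WARS1, the least abundant cytosolic member, read 12.41, 11.75, 12.17, 11.90 and 12.23 at day 0 and 11.20, 10.89, 10.77 and 10.78 at day 28. It fell by 1.20 ± 0.21 on the log2 scale (adjusted p = 0.000797), and its treated libraries lay close together.

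YARS1, the tyrosyl enzyme, read 14.34, 14.74, 14.45, 15.06 and 14.61 at day 0 and 13.45, 13.55, 13.39 and 13.31 at day 28 (-1.20 ± 0.19, adjusted p = 0.000465). VARS1, the valyl enzyme, read 14.12, 14.23, 14.33, 14.22 and 14.12 at day 0 and 12.40, 13.34, 13.08 and 13.19 at day 28 (-1.18 ± 0.21, adjusted p = 0.000838). FARSA, the alpha subunit that pairs with FARSB, read 14.58, 14.75, 14.82, 14.80 and 14.56 at day 0 and 13.02, 13.79, 13.65 and 13.57 at day 28 (-1.17 ± 0.19, adjusted p = 0.000558). None of these 3 genes overlapped between the days, and in VARS1 and FARSA the treated G1 library of clone 1 was the lowest. The subunits thus fell by different amounts, FARSB 3.74-fold and FARSA 2.24-fold, a difference that was not tested.

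The other cytosolic genes that fell were those for glycine (GARS1, -1.08), serine (SARS1, -1.06), the joint glutamate and proline enzyme (EPRS1, -0.93), arginine (RARS1, -0.82), asparagine (NARS1, -0.73), alanine (AARS1, -0.63), isoleucine (IARS1, -0.51) and histidine (HARS1, -0.43). Their adjusted p lay between 0.000555 (SARS1) and 0.0415 (HARS1). The enzymes for methionine (MARS1, -0.42 ± 0.19, adjusted p = 0.0775), glutamine (QARS1, -0.31, adjusted p = 0.132), leucine (LARS1, -0.15, adjusted p = 0.471) and cysteine (CARS1, -0.13, adjusted p = 0.70) did not pass the test.

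Not overlapping between the days were 15 cytosolic genes, all of them lower at day 28, where 18.9% of tested genes lay lower in this way. These 15 include QARS1, whose day 28 values of 14.68 to 15.06 lay just under its day 0 values of 15.10 to 15.19, and leave out NARS1, whose day 28 G2 value (12.99) exceeded day 0 G1 clone 7 (12.94). The call of HARS1 was lost when any 1 of the 9 libraries was left out (adjusted p from 0.0504 to 0.097). That of IARS1 was lost without either untreated S library (0.0656 for clone 1 and 0.0601 for clone 7), untreated G2 (0.0848), treated S (0.141) or treated G2 (0.0845). That of RARS1 was lost without untreated G2 (0.0569), treated S (0.0504) or treated G2 (0.0576). With quantile scaling AARS1 (-0.22, adjusted p = 0.364), HARS1 (-0.20, 0.347), IARS1 (-0.20, 0.343) and RARS1 (-0.39, 0.173) were not called, in clone 1 alone AARS1 (0.0923) and HARS1 (0.107) were not, and on the narrowest span of each gene AARS1 (-1.23, 0.0752), EPRS1 (-1.16, 0.0557) and NARS1 (0.05, 0.920) were not. On that span QARS1 was called lower (-0.99, adjusted p = 0.0445). The median over the 8629 genes tested on that span was -0.39, and 2946 of them fell.

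Mitochondrial synthetases divided. Of 16 genes 7 fell and 0 rose (26.6% of tested genes fell), with a median log2 fold change of -0.29, and 5 did not overlap between the days, all lower at day 28 (18.9% of tested genes lay lower in this way). The number that fell was 4 without G1 of clone 1 from either day or G2 from either day. Over each library, the mean of the 16 genes, centred on each gene's own mean, lay between 0.043 and 0.318 at day 0 and at -0.444, -0.468, 0.010 and -0.154 at day 28. The same mean over the cytosolic genes lay between 0.263 and 0.541 at day 0 and between -0.706 and -0.433 at day 28. The 28-day S library was thus close to the day 0 range for the mitochondrial genes and far from it for the cytosolic genes.

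IARS2, the mitochondrial isoleucyl enzyme (ENSG00000067704, chromosome 1, 220094217 to 220147635), fell most. It stood at 14.59, 14.91, 14.67, 14.82 and 14.77 at day 0 and at 12.58, 12.67, 13.24 and 13.34 at day 28. The days were far apart, and treated G1 lay below treated S and G2. The mean went from 14.75 ± 0.13 (SD, n = 5) to 12.96 ± 0.39 (SD, n = 4), with a log2 fold change of -1.77 ± 0.19 (SE, limma adjusted p = 5.79e-05), or 3.42-fold lower.

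YARS2, the mitochondrial tyrosyl enzyme (ENSG00000139131, chromosome 12, 32747204 to 32755874), also had treated G1 below treated S and G2. It stood at 13.57, 13.56, 13.68, 13.56 and 13.95 at day 0 and at 11.60, 11.51, 12.43 and 12.61 at day 28. The log2 fold change was -1.60 ± 0.19 (SE, limma adjusted p = 0.000107), or 3.03-fold lower. It is the mitochondrial promoter with a TGATGNAA match.

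MARS2 and PARS2, the mitochondrial methionyl and prolyl enzymes, have their whole coding sequence in 1 exon (spans of 1.78 and 1.43 kb, 100% exonic), so their values hold no intron reads. MARS2 read 9.27, 7.69, 9.18, 8.60 and 8.18 at day 0 and 6.17, 6.74, 8.44 and 6.39 at day 28. PARS2 read 9.36, 8.28, 9.45, 8.81 and 9.0 at day 0 and 7.14, 7.12, 8.09 and 8.68 at day 28. In both the days overlapped, through treated S in MARS2 and treated G2 in PARS2. Both were scarce, with as few as 16 (MARS2) and 24 reads (PARS2) in the shallowest library.

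The log2 fold changes were -1.49 ± 0.49 for MARS2 (adjusted p = 0.0224) and -1.17 ± 0.39 for PARS2 (adjusted p = 0.0252). The MARS2 call was lost without clone 1 G1 of day 0 (0.077) or day 28 (0.068) and without G2 of day 0 (0.068) or day 28 (0.060). The PARS2 call was lost without clone 1 from untreated G1 (0.0817) or S (0.0633), without treated S (0.0607) or without either treated G1 library (0.0668 without clone 1 and 0.0515 without clone 7).

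TARS2, the mitochondrial threonyl enzyme, read 12.37, 12.76, 12.67, 13.29 and 12.58 at day 0 and 11.62, 11.64, 12.13 and 11.81 at day 28 (-0.87 ± 0.19, adjusted p = 0.00301). SARS2, the seryl enzyme, read 11.69, 11.76, 12.04, 11.93 and 11.94 at day 0 and 11.20, 10.87, 11.66 and 11.19 at day 28 (-0.59 ± 0.19, adjusted p = 0.0194). LARS2, the leucyl enzyme, stood at -0.53 ± 0.20 (adjusted p = 0.0434). The days did not overlap in these 3 genes, by a margin of only 0.03 between day 28 S (11.66) and day 0 G1 clone 1 (11.69) in SARS2. The SARS2 call was lost without G2 of day 0 (0.062) or day 28 (0.0602) and in clone 1 alone (0.072). The LARS2 call was lost without any 1 of 7 libraries (0.0698 to 0.122) and was kept without day 0 S clone 7 or day 28 G1 clone 7.

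The remaining 9 mitochondrial genes did not pass the test, and 6 of them had positive estimates, that of RARS2 rounding to 0.00. AARS2, the alanyl enzyme, read 10.84, 9.90, 11.42, 10.56 and 10.82 at day 0 and 11.19, 10.76, 11.45 and 10.86 at day 28 (0.43, adjusted p = 0.203). VARS2, the valyl enzyme, read 12.30, 12.70, 12.80, 12.62 and 12.18 at day 0 and 12.58, 12.57, 13.33 and 12.96 at day 28 (0.40, adjusted p = 0.0961). In both, treated G1 lay among the untreated values, and in VARS2 treated S and G2 lay above them.

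FARS2, the phenylalanyl enzyme, read 11.17, 10.91, 11.16, 11.38 and 11.94 at day 0 and 11.66, 11.73, 11.72 and 11.66 at day 28 (0.38, adjusted p = 0.146). All 4 treated values exceeded 4 of the 5 untreated ones, and day 0 G2 exceeded them all. FARS2 was called higher without G2 of day 0 (0.58, adjusted p = 0.047) or day 28 (0.58, 0.0463), and VARS2 without day 0 G1 clone 7 (0.54, 0.0345) or with quantile scaling (0.53, 0.0496).

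WARS2, the tryptophanyl enzyme, read 11.42, 10.70, 11.24, 10.78 and 11.66 at day 0 and 11.43, 11.24, 11.60 and 11.79 at day 28 (0.34, adjusted p = 0.216). NARS2, the asparaginyl enzyme, read 11.98, 12.42, 12.09, 12.36 and 12.40 at day 0 and 12.59, 12.18, 12.35 and 12.46 at day 28 (0.14, adjusted p = 0.544). The days overlapped in both. RARS2 for arginine (0.00), HARS2 for histidine (-0.19), EARS2 for glutamate (-0.21) and CARS2 for cysteine (-0.37) had adjusted p between 0.208 and 0.993.

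**Figure D1:**
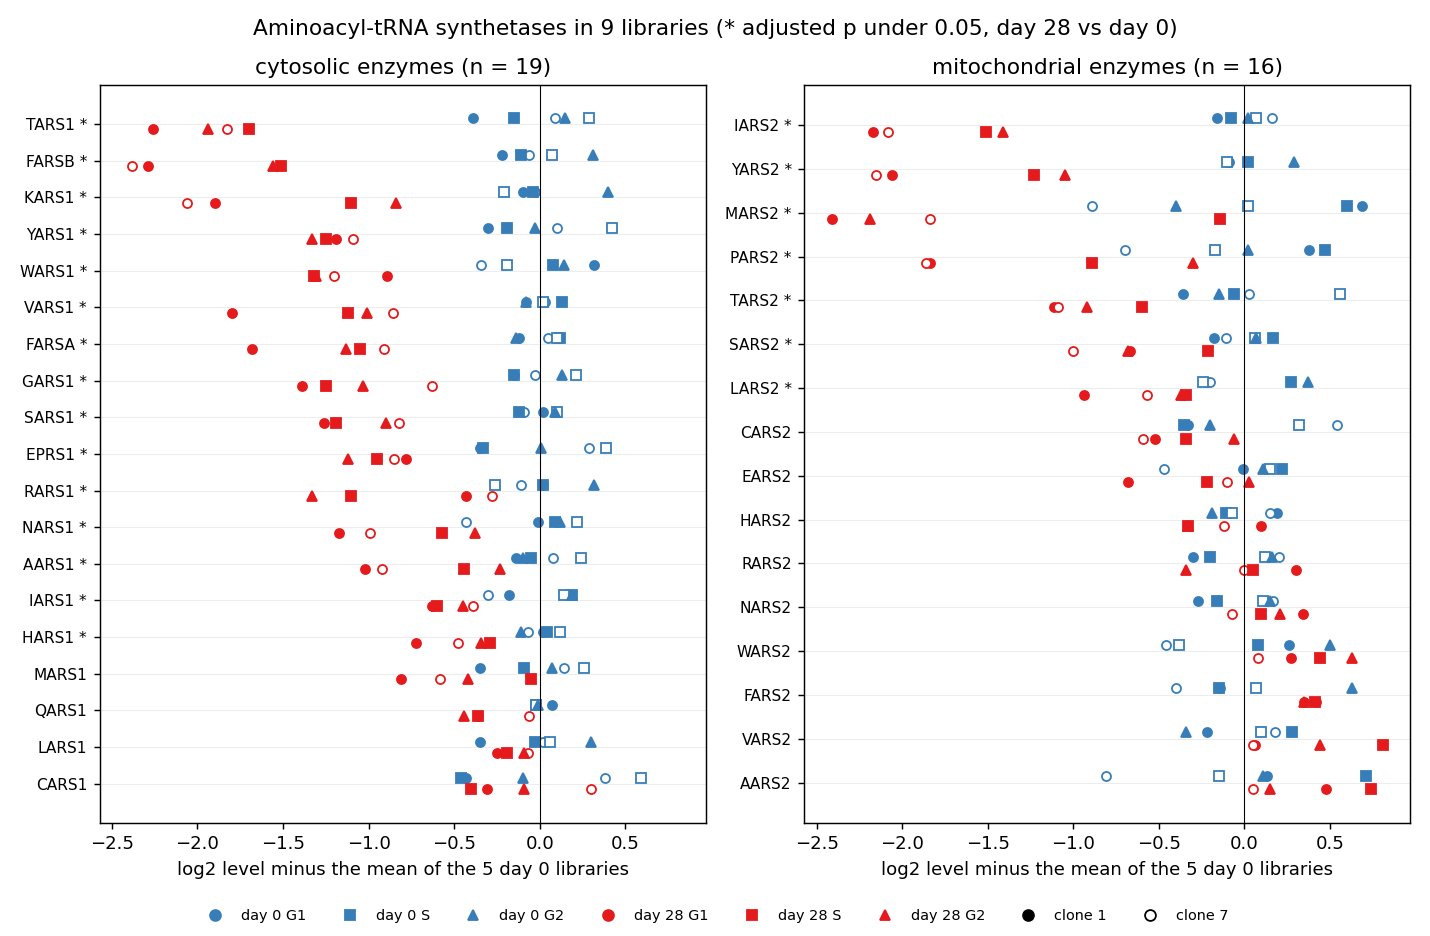
Log2 level of each gene in each of the 9 libraries, minus the mean of the 5 day 0 libraries (x axis), for the cytosolic genes on the left and the mitochondrial genes on the right. Colours mark the day, shapes the phase, filled points clone 1, open points clone 7, and stars an adjusted p under 0.05. TARS1, FARSB, IARS2 and YARS2 lie 1 log2 unit or more below 0 in every treated library, while in the 5 lowest mitochondrial rows the treated points lie around or above 0.

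Matched by phase and clone, the median of day 28 minus day 0 for G1 of clone 1, G1 of clone 7, S and G2 (both of clone 1) was -0.88, -0.73, -1.05 and -0.99 for the cytosolic genes. It was -0.34, -0.33, -0.30 and -0.30 for the mitochondrial genes and between -0.01 and 0.05 for all tested genes. All 19 cytosolic genes were lower in the clone 7 G1 pair, and 17, 17 and 18 in the clone 1 pairs for G1, S and G2. Of the mitochondrial genes, 12 were lower in the clone 7 G1 pair and 10, 9 and 11 in the clone 1 pairs. Over all tested genes 50.4% were lower in the clone 7 G1 pair and 48.8%, 47.9% and 49.5% in the clone 1 pairs. The mitochondrial count in S (56.2%) was thus near the share over all tested genes. S and G2 have 1 treated library each, so these differences carry no test of their own.

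In G1, the phase with 2 libraries on each day, 10 cytosolic and 5 mitochondrial genes fell and 0 rose, where 19.1% of tested genes fell and 19.8% rose, 39% in all (limma, contrast of group means). The largest falls were in FARSB (-2.20 ± 0.23, adjusted p = 0.00245), IARS2 (-2.12 ± 0.24, 0.00248), MARS2 (-2.02 ± 0.67, 0.0469), YARS2 (-2.01 ± 0.23, 0.00248), KARS1 (-1.91 ± 0.24, 0.00295) and TARS1 (-1.90 ± 0.31, 0.00488). LARS1 stood at 0.00 and CARS1 at 0.02. With the clone as a replicate block 14 cytosolic and 6 mitochondrial genes fell, where 3034 of 12391 tested genes fell (2372 without the block). The added calls were EPRS1, GARS1, HARS1, MARS1 and SARS2. The cytosolic count was 5 without either untreated G1 library and 3 without treated G1 of clone 1. The mitochondrial count was 2 without clone 1 from untreated G1, either untreated S library or either treated G1 library.

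Whether the change at day 28 differed between G1 and the later phases was asked with 1 coefficient for S and G2 together. No member passed (0 of 35, and 0 of 12391 genes, or 0%, by limma), with 3 members and 1382 genes at an unadjusted p under 0.05, and voom on the recovered reads called 0 members. Those 3 members were KARS1 (0.83 ± 0.31, adjusted p = 0.374) and YARS2 (0.76 ± 0.30, 0.398), less reduced in S and G2 than in G1, and RARS1 (-0.96 ± 0.35, 0.365), with the opposite sign. RARS1 read 14.67 and 14.82 in treated G1 but 14.00 in treated S and 13.77 in treated G2, against 14.84 to 15.42 in untreated cells. A simulated 2-fold difference, with the same dispersion for all genes, was recovered for 42% of changed genes in this comparison. A difference of that size can thus be missed.

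Between untreated S and G1, 0 of 35 members and 0 of 12391 genes (0%) passed by limma, 0 members and 443 genes had an unadjusted p under 0.05, and voom called 0 members. Estimates ran from -0.08 to 0.40 for the cytosolic genes (IARS1 0.40) and from -0.26 to 0.62 for the mitochondrial genes (HARS2 -0.26, AARS2 0.62). The phase gene MKI67 was not called either. It read 11.28 (clone 1) and 13.39 (clone 7) in untreated G1 and 14.00 and 14.26 in untreated S. The absence of calls therefore says little about single members. Between clones 7 and 1, 0 members passed by limma, where 0.613% of tested genes did, and 3 had an unadjusted p under 0.05. The clearest was CARS1 (0.83 ± 0.18, adjusted p = 0.0720), which read 13.62, 13.83 and 13.54 in clone 7 and 12.81, 12.78 and 12.93 in the matched clone 1 libraries. Clone 7 exceeded clone 1 in all 3 pairs, and CARS1 was called without day 28 G1 clone 7. The other two were AARS2 (-0.70 ± 0.24) and WARS2 (-0.48 ± 0.21), both lower in clone 7. Voom called 0 members here too.

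The enzymes for the same amino acid were compared within a library in 15 pairs, with FARSA and FARSB each set against FARS2. The other pairs were formed by matching symbols, so EPRS1 (-0.93) was not set against EARS2 (-0.21) or PARS2 (-1.17). The cytosolic gene had the lower estimate in 10 pairs and the mitochondrial gene in 5. With the trend with coding span removed these numbers were 8 and 7: FARSA (-0.90) then lay above FARS2 (-1.32), whose span is 453 kb, and NARS1 (-0.55) above NARS2 (-0.65). The difference between FARSB and FARS2 went from -2.29 to -1.04. The ratio is not corrected for length, so only its shift between days is read. The log2 ratio of FARSB to FARS2 was 3.61 to 4.28 at day 0 and 1.13 to 2.01 at day 28, and that of FARSA to FARS2 was 2.62 to 3.84 and 1.36 to 2.05. For VARS1 and VARS2 it went from 1.52 to 1.94 at day 0 to between -0.25 and 0.77 at day 28. None of these ranges overlapped between the days, as was the case for 6 of the 15 pairs. The share of gene pairs at large without overlap was not computed, so this count has no background. Among single tested genes, 18.9% lay wholly lower and 20.9% wholly higher at day 28.

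WARS1 with WARS2 and TARS1 with TARS2 also shifted down without overlap. Isoleucine went the other way: the log2 ratio of IARS1 to IARS2 rose from between -0.81 and -0.08 at day 0 to between 0.55 and 1.34 at day 28, the remaining pair of the 6. The 2 pairs with the smallest difference were CARS1 with CARS2 and HARS1 with HARS2. CARS2 read 13.41, 14.28, 13.39, 14.06 and 13.54 at day 0 and 13.22, 13.15, 13.40 and 13.68 at day 28, where CARS1 read 12.81, 13.62, 12.78, 13.83 and 13.14 at day 0 and 12.93, 13.54, 12.84 and 13.15 at day 28. The days overlapped in both.

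HARS1 and HARS2 are head-to-head neighbours on chromosome 5, with start codons at 140691304 on the minus strand and 140691649 on the plus strand. HARS1 read 13.74, 13.65, 13.76, 13.84 and 13.61 at day 0 and 13.00, 13.24, 13.43 and 13.38 at day 28. HARS2 read 12.62, 12.58, 12.32, 12.36 and 12.24 at day 0 and 12.53, 12.31, 12.10 and 12.10 at day 28. HARS1 did not overlap between the days and HARS2 did, with log2 fold changes of -0.43 ± 0.16 and -0.19 ± 0.17 and overlapping ratios.

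**Figure D2:**
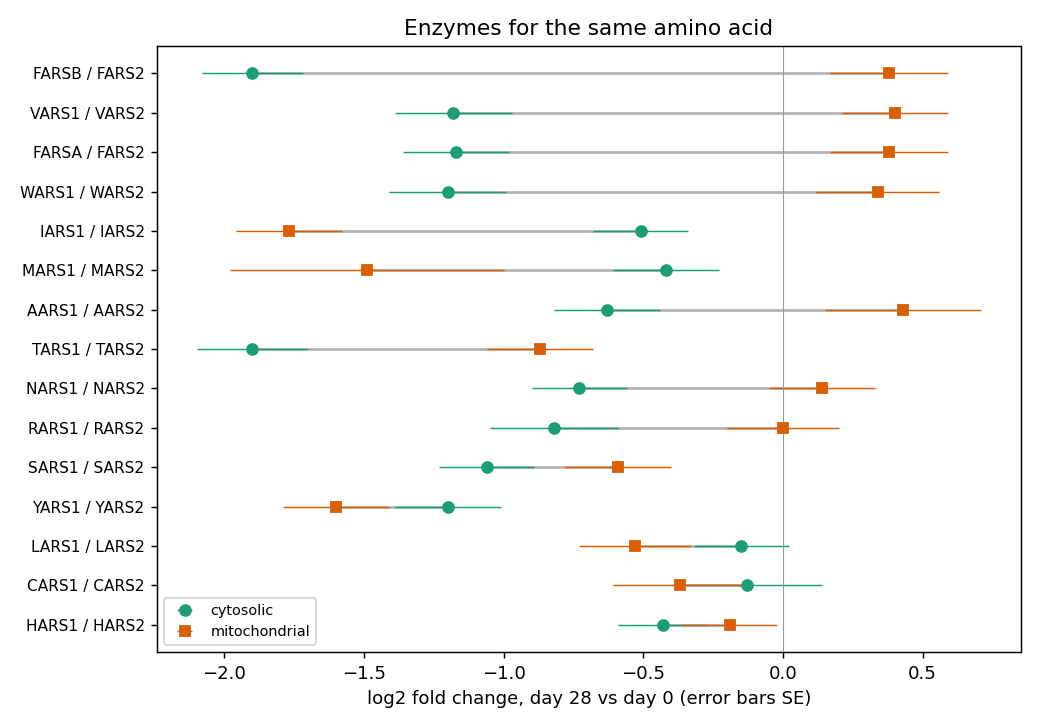
Log2 fold change at day 28 (x axis, error bars SE) of the cytosolic (circles) and mitochondrial (squares) enzyme of each pair, joined by a grey line and ordered by the size of their difference. FARSB at -1.90 and FARS2 at 0.38 stand farthest apart (a difference of -2.29, or -1.04 with the span trend removed), IARS2 (-1.77), MARS2 (-1.49), YARS2 (-1.60), LARS2 (-0.53) and CARS2 (-0.37) lie left of their cytosolic partners, and HARS1 (-0.43) and HARS2 (-0.19) stand closest.

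The change at day 28 varied with the length of the coding span over all genes, from a median log2 fold change of -0.53 for spans up to 3 kb to 2.01 for spans over 300 kb. The share of reads in spans over 300 kb was 0.726% to 1.05% without and 2.06% to 3.41% with treatment. The median spans were 30.04 kb (8.71 to 84.2) for the cytosolic and 26.3 kb (1.43 to 453) for the mitochondrial genes, against 25.8 kb over all tested genes. Of the cytosolic genes, 18 of 19 lay below the median of their own span class, QARS1 being the exception. Of the mitochondrial genes, 13 of 16 did. With the smooth trend with span removed, 15 cytosolic genes (LARS1 in place of HARS1) and 7 mitochondrial genes (CARS2, FARS2 and NARS2 in place of MARS2, PARS2 and SARS2) were called lower. Over all tested genes 3014 of 12391 were then called lower, against 3291 with the trend kept.

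Removing that trend mattered most for the longest mitochondrial genes. FARS2, with a span of 453 kb, went from 0.38 to -1.32 (adjusted p = 0.000600), NARS2 (138 kb) from 0.14 to -0.65 (0.0153) and WARS2 (108 kb) from 0.34 to -0.28 (0.322). In contrast, VARS2 (11.4 kb) rose to 0.67 (0.0155), and MARS2 (-1.02, 0.104), PARS2 (-0.69, 0.171), SARS2 (-0.36, 0.133) and HARS1 (-0.22, 0.286) were no longer called. The difference between the class medians, -0.64 as scaled by the authors, was -0.26 without the trend and -0.25 with quantile scaling.

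**Figure D3:**
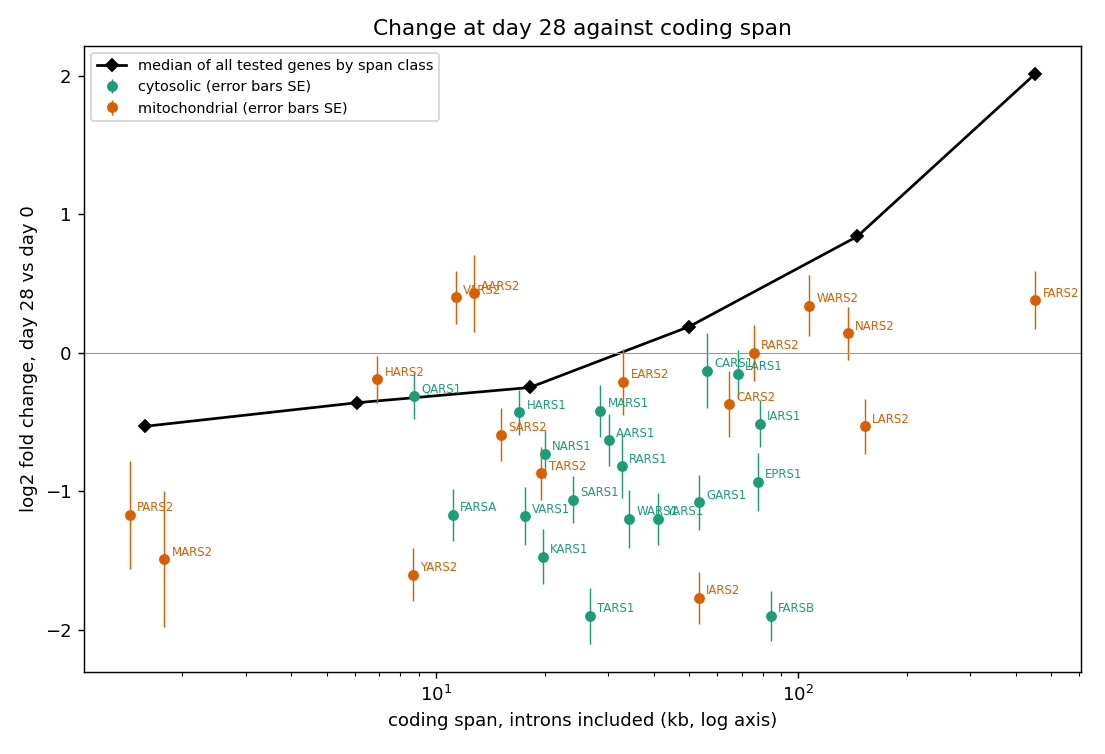
Log2 fold change at day 28 (y axis, error bars SE) against the coding span in kb (x axis, log scale) for the 35 synthetase genes, with the median of all tested genes in 6 span classes as black diamonds. The line rises from -0.53 to 2.01, and 18 of 19 cytosolic and 13 of 16 mitochondrial genes lie below the median of their class.

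For 18 members the file held a nested span that shares 1 end, so that the reads could be divided into an exon-richer and an exon-poorer part, a division chosen after the data were seen. In the exon-richer parts 8 members fell and 0 rose (26.7% of 6743 genes fell), and in the exon-poorer parts 8 fell and 2 rose (23.8% of 7056 fell). The share of all genes that rose in either part was not computed, so the 2 rises have no background. KARS1 fell in both (-1.39 ± 0.21 and -2.22 ± 0.25), as did TARS1 (-1.88 ± 0.21 and -2.26 ± 0.26) and YARS1 (-1.20 ± 0.21 and -1.16 ± 0.20). CARS1 and LARS1 were the 2 that rose in the exon-poorer part, which held a mean of 128 and 223 reads per library.

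In CARS1 the 39.9 kb toward the stop codon held 98.4% of the day 0 reads and stood at -0.19 ± 0.27 (adjusted p = 0.589), whereas the 16.4 kb toward the start codon (chromosome 11, 3041011 to 3057367, 3.34% exonic) rose by 1.48 ± 0.41 (adjusted p = 0.0102). In LARS1 the 58.6 kb with 98.6% of the reads stood at -0.18 ± 0.18 and the 9.76 kb toward the start codon (chromosome 5, 146172738 to 146182493, 1.66% exonic) rose by 0.97 ± 0.31 (adjusted p = 0.0192). MARS1 fell by 1.27 ± 0.31 (adjusted p = 0.00603) over the 2.26 kb at its start codon, which held 7.96% of its day 0 reads, against -0.38 ± 0.20 over the rest. AARS1 showed -0.24 ± 0.22 in the exon-richer 1.99 kb and -0.96 ± 0.18 in the rest. The differences between the parts were not tested.

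Levels between genes were compared as reads per kb of exon inside the coding span per M reads, a scale on which intron reads are still counted. Exons of all protein-coding transcripts were merged, so this length can exceed that of the coding sequence. At day 0 the medians ran from 22.5 (WARS1) to 244 (SARS1) for the cytosolic genes, with a class median of 102, and from 2.06 (MARS2) to 89.1 (IARS2) for the mitochondrial genes, with a class median of 21.6. SARS1 (209 to 266), TARS1 (180 to 262) and FARSB (185 to 239) were highest and their ranges overlapped. IARS2 (81.1 to 89.9) and YARS2 (74.3 to 97.3) stood above the other mitochondrial genes, the next being CARS2 (41 to 68.4). At day 28 SARS1 still led (123 to 173), beside QARS1 (112 to 158) and RARS1 (74.6 to 167). TARS1, at 57.0 to 77.5, then overlapped LARS1, at 66.0 to 78.1, which had stood at 55.4 to 74.0 before treatment. This scale divides by all reads of a library and not by the authors' factor, and the days can differ less on it. The median of LARS1 went from 67.1 to 69.9 and that of CARS1 from 29.7 to 36.4, where the authors' scaling gave -0.15 and -0.13. TARS1 still went from 215 to 72.0. Changes on this scale were not tested.

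Of the 7 enzymes of the multisynthetase complex 4 fell, with a median of -0.51, led by KARS1 and EPRS1. Of the 12 cytosolic enzymes outside it 11 fell, with a median of -1.12, and 26.6% of all tested genes fell. The 3 scaffolds fell, AIMP2 by 1.18 ± 0.23 on the log2 scale (adjusted p = 0.00131), AIMP1 by 0.82 ± 0.19 (0.00356) and EEF1E1 by 0.77 ± 0.23 (0.0145). The EEF1E1 call was lost without G2 of day 0 (0.0741) or day 28 (0.0717). By catalytic fold, 10 of 19 class I enzymes (median -0.51) and 12 of 16 class II enzymes (median -0.80) fell, against the same 26.6%. EPRS1 belongs to both classes and was counted with class I. No difference between these groups was tested.

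Synthetases commonly listed as induced by ATF4 fell in 9 of 12 cases (median -0.83), and the other cytosolic genes in 6 of 7 (median -1.17), against 26.6% of all tested genes. The difference between the groups was not tested. By sequence, the 7 cytosolic genes with a TGATGNAA match had a median of -0.63 and the 9 without had -1.06. Those with the match spanned nearly the whole range, from TARS1 (-1.90) and GARS1 (-1.08) to MARS1 (-0.42) and CARS1 (-0.13). ATF4 itself did not pass the test (-0.15 ± 0.22, adjusted p = 0.570).

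Of 25 genes of the amino acid response 14 fell and 3 rose (26.6% and 28.6% over all tested genes), with a median of -0.67. Its genes went apart, with the transcriptional cofactor NUPR1 at 4.33 ± 0.46 (adjusted p = 5.7e-05) and the transcription factor ATF3 at 2.25 ± 0.42 (0.00115). Falls came in the pseudokinase TRIB3 (-2.50 ± 0.37, 0.000299) and the secreted glycoprotein STC2 (-2.22 ± 0.27, 0.000113). Enzymes of serine and one-carbon metabolism on this list stood lower, with SHMT2 at -1.24 and PSAT1 at -1.03, while asparagine synthetase, ASNS, did not pass (-0.24 ± 0.27, adjusted p = 0.472).

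Of 13 amino acid transporters tested 5 rose and 2 fell, where 28.6% of all tested genes rose and 26.6% fell. The median of the transporters was 0.22, and SLC43A1 was too low to test. The amino acid carriers SLC43A2 (2.23 ± 0.46, adjusted p = 0.00188), SLC7A6 (1.8 ± 0.44, 0.00492) and SLC36A1 (1.62 ± 0.49, 0.0162) rose, and the glutamine importer SLC1A5 fell (-1.37 ± 0.20, 0.000255). The SLC36A1 call was lost without G2 of day 0 (0.0654) or day 28 (0.0739), without treated S (0.0867) and with quantile scaling (0.82, 0.180).

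Downstream of charging, 4 of 6 cytosolic elongation factors 1 and 2, which bring charged tRNA to the ribosome and move it along, fell and 0 rose (median -1.46, with 26.6% of all tested genes lower). These were EEF1A1 (-1.69 ± 0.37), EEF1B2 (-1.59 ± 0.23), EEF1G (-1.49 ± 0.23) and EEF2 (-1.42 ± 0.21), with adjusted p from 0.000297 to 0.00269. With quantile scaling EEF1G (-0.42, adjusted p = 0.0804) and EEF2 (-0.45, 0.0899) lost the call. Of 10 mitochondrial translation factors 5 fell and 1 rose (median -0.59, against the same 26.6% lower and 28.6% higher). The elongation factors TUFM (-1.28 ± 0.23) and GFM1 (-1.24 ± 0.21) and the recycling factor MRRF (-0.92 ± 0.19) fell, and the release factor MTRF1 rose by 1.42 ± 0.24 (adjusted p = 0.000687).

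Of 21 genes of RNA polymerase III and tRNA export 12 fell and 1 rose (median -0.61, against 26.6% lower and 28.6% higher over all tested genes), among them the factor GTF3C6 (-1.87 ± 0.24, adjusted p = 0.000152) and the polymerase subunits POLR3K (-1.69 ± 0.35) and POLR3G (-1.20 ± 0.31), while BDP1, of the initiation factor TFIIIB, rose by 1.30 ± 0.26 (0.00189). The BDP1 call was lost with the span trend removed (0.67, 0.0565). Of 18 genes that mature mitochondrial tRNA or amidate its glutamate 5 fell and 1 rose (median -0.27), a share of falls close to the 26.6% over all tested genes. The mitochondrial RNase P subunits TRMT10C (-1.63 ± 0.21, adjusted p = 0.000170) and HSD17B10 (-1.29 ± 0.23), the 3′ nuclease ELAC2 (-0.93 ± 0.19) and the amidotransferase subunit GATB (-0.91 ± 0.16) fell.

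Of 5 genes for proofreading of misacylated tRNA and for peptidyl-tRNA hydrolases 2 fell and 1 rose (median -0.31), too few to read against the share over all tested genes. The deacylase DTD1 fell by 1.69 ± 0.22 (adjusted p = 0.000150) and the hydrolase PTRH2 by 0.89 ± 0.19 (0.00228), and DTD2 rose by 1.27 ± 0.36 (0.0108). DTD2 lost its call with quantile scaling (0.48, 0.372) and in clone 1 alone (0.0538), and PTRH2 with the span trend removed (-0.41, 0.0965).

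**Figure D4:**
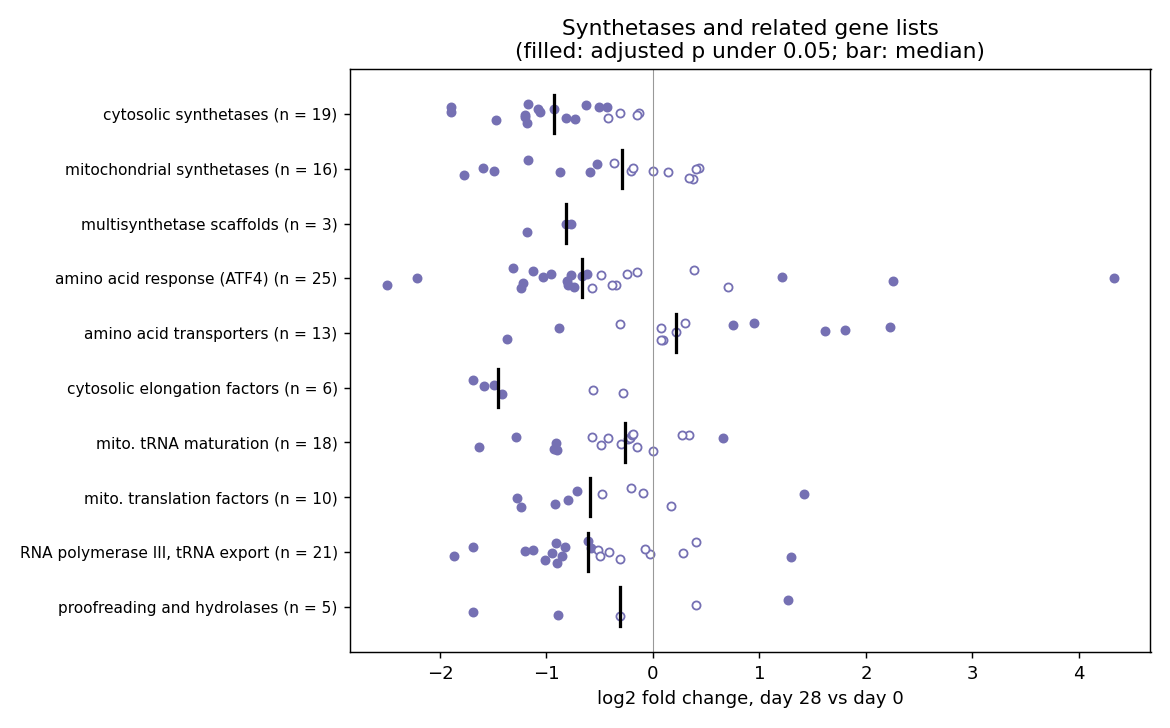
Log2 fold change at day 28 (x axis) of each tested gene in the synthetase classes and 8 related lists, with filled points for an adjusted p under 0.05 and a black bar at each median. Medians run from -1.46 (cytosolic elongation factors) to 0.22 (amino acid transporters), beside -0.93 for the cytosolic and -0.29 for the mitochondrial synthetases.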

How the data were processed

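PC9 libraries of poly(A) RNA were grouped by day, sorted phase and clone from their titles. The file deposited by the authors holds log2 values of 80037 coding transcripts. The submitters' processing notes name HISAT2 2.1.0, the build GRCh38 and DESeq2 (no version). The read counter and the scaling are not given in the sources used here. Back on the linear scale, the deposited log2 values are whole reads multiplied by a library's own factor (100% of values up to 1000 reads were within 0.05 of a whole number), and an absent read is entered as 0.9.

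Each gene was represented by the span with the highest mean, with the coordinates that accompany the deposited values. Exon lengths came from GENCODE by gene identifier, as the merged exons of protein-coding transcripts inside the span. Values were made linear, 1 was added and log2 was taken, so folds of scarce genes are understated. Genes with a mean log2 of at least 7.01, or 10 reads in the shallowest library (8.83 M reads), were tested, 12391 of 20442. Tests used limma 3.58.1 in R 4.3.3 (moderated with an intensity trend, Benjamini-Hochberg over all tested genes). Tables and figures used data.table (1.17.8), pandas 2.3.3, matplotlib 3.10.9, numpy 2.4.6 and scipy 1.17.1 under Python 3.11.15. The spread was pooled, so a group of 1 library is taken to vary as the rest do. On simulated data, 2-fold changes were recovered for 100% of changed genes for day 28 against day 0 and 80% within G1. The simulation gave all genes the same dispersion, added no clone difference in these comparisons and changed few genes. Recovery in these data can therefore be lower, as for genes with a wide spread such as MARS2 (SE 0.49).

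The members, the gene lists and the tests were chosen with earlier results of these data known. Values in every library are given for the 6 largest falls of each class, for members against the direction of their class, and for the pairs that differ most and least. Up to 4 genes with the largest change are named per list. ATF4, SHMT2, PSAT1, ASNS, SLC43A1 and, in the clone, phase and span comparisons, members without a call were named after their values were seen. Clone labels pair the samples: deviations of clone 7 from clone 1 correlated at 0.653 (day 0 G1 and S), 0.116 (G1 at both days) and 0.296 (day 0 S and day 28 G1). Alternatives were other scalings, filters and pseudocounts, the clone as a block, clone 1 alone, voom, a span trend, the narrowest span and leaving out each library. Some single genes are not reported here.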

Additional observations from a re-analysis of the deposited data

How the results depend on the processing

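Of 22 members called lower at day 28, 12 kept their call under each of 20 alternative settings that gave a value: FARSA, FARSB, GARS1, KARS1, SARS1, TARS1, VARS1, WARS1, YARS1, IARS2, TARS2 and YARS2 (WARS1 had no value for the narrowest span). Leaving out 1 library gave 12 to 14 lower cytosolic, 4 to 7 lower mitochondrial and 0 to 1 higher members, and in G1 3 to 10, 2 to 5 and 0. The clone comparison gave 0 to 1 called member, and S against G1 and day by phase 0. Members called higher numbered 1 with quantile scaling and with the span trend removed (VARS2 in each), and 2 on the narrowest span (CARS1 and WARS2 of 28 tested, 1 in G1). The difference of class medians, -0.64, was -0.25, -0.26 and -0.45 under these settings and -0.71 to -0.51 without 1 library. Signs turned with quantile scaling in LARS1 (0.24) and QARS1 (0.20), on the narrowest span in CARS1 (1.48), NARS1 (0.05) and RARS2 (-0.40), with the span trend removed in FARS2 (-1.32), HARS2 (0.13), NARS2 (-0.65), RARS2 (-0.39) and WARS2 (-0.28), and in the exon-poorer part in CARS1 (1.48), LARS1 (0.97) and HARS2 (0.35). The cause was not tested. CARS1 stood at 1.48 ± 0.41 (SE) on its narrowest span and in its exon-poorer part alike. That part is 16.4 kb long and 3.34% exonic, with a mean of 128 reads per library. The 2 values may rest on the same reads. A further 9 sign changes within 1 SE fell in CARS1 and RARS2. Median-of-ratios scaling moved the median of all genes from 0.01 to -0.10 and quantile scaling to -0.14, and the former added a call for MARS1 (-0.54, limma adjusted p = 0.0262). The narrowest span gave a median of -0.39 over 8629 tested genes, with 2946 lower and 1515 higher. There 10 of 16 cytosolic and 6 of 12 mitochondrial members tested were lower.

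With the clone as a replicate block, 15 cytosolic and 7 mitochondrial members fell at day 28 and 14 and 6 in G1. Over all 12391 tested genes 3514 fell at day 28 and 3034 in G1, against 3291 and 2372 without the block. With the block, no call of a member was lost in either comparison, and 5 were added in G1.

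Over all genes, those called higher at day 28 numbered 3538, and 1515 on the narrowest span (2459 and 1004 in G1). In G1 they numbered 1096 without treated G1 of clone 1 (with 1416 lower in place of 2372), 1381 without that of clone 7 and 1634 without untreated G1 of clone 1. Without treated G1 of clone 1 the day by phase fit called 49 genes higher and 7 lower in place of 0. With no filter, 2 genes were called between S and G1 in place of 0. The clone comparison, with 48 higher and 28 lower, ranged without 1 library from 6 to 197 higher and from 2 to 140 lower, gave 10 and 9 with quantile scaling, 97 and 66 with no filter and 30 and 8 on the narrowest span, and 102 higher by voom.

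Depth limits the scarcest members, MARS2 (16 reads at least) and PARS2 (24). Reads are not independent molecules, and the values mix spliced and unspliced RNA.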
